A study of Rattus norvegicus with 8 samples.

Results

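The 37 genes described here encode the proteins that move a cell through division: the cyclins and their kinases, the brakes on those kinases, the DNA replication and nucleotide supply enzymes, and the regulators of mitosis. They were chosen by name. Every non-control probe of the arrays whose gene name equals a listed symbol was taken, with Cdk1 also looked for under its older name Cdc2. This gave 79 probes for 37 genes, of 25511 gene names on the array, with 1 probe for 2 genes, 2 probes for 28 genes and 3 probes for 7 genes.

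Liver RNA was taken from male rats of the outbred Sprague Dawley strain, with a labelled weight of 180 to 200 g. In the high-fat group, 4 samples came from rats kept for 12 weeks on a diet labelled 60% high-fat. In the control group, 4 samples came from rats on a normal diet, also for 12 weeks. Each sample was hybridised in 1 colour (Cy3) to 1 array of 60-base probes, so the number of arrays limits the precision. No allele, transgene or drug is named for either group. Whether the samples of a group came from different animals is not stated in the labels; the p-values therefore reflect sample-to-sample spread, which may in part be technical.

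Cells enter the cycle when D-type cyclins with Cdk4 or Cdk6, and then E-type cyclins with Cdk2, phosphorylate the retinoblastoma protein, which in its unphosphorylated form holds E2F transcription factors in check. Released E2F raises transcription of replication and nucleotide genes, and the later cyclins with Cdk1 then drive mitosis. Most hepatocytes of an adult liver are out of the cycle and return to it after tissue loss or injury, so many of these transcripts are scarce in resting liver.

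Between 50.38% and 71.87% of all 46883 probes were well above background on each array by the scanner software's own flag, with control replicate 1 (50.38%) and high-fat replicate 1 (56.33%) the dimmest. All arrays lay on 1 slide and were scanned on 1 day, and each of the 2 slide rows held 2 control and 2 high-fat arrays. No spot was saturated. Values are log2 intensities after subtraction of each array's 75th percentile, taken over those probes that stood above background everywhere, and a change is the high-fat mean minus the control mean on that scale. Alb, Apoa1 and Ttr, abundant hepatocyte transcripts, were well above background on all 8 arrays and their changes were -0.09, -0.14 and -0.06.

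Of the 37 genes, 27 had a probe well above background on all 8 arrays. Another 7 had a probe above background on 4 to 7 arrays, and these 34 genes (91.9%, against 72.9% of all gene names) could be tested. The other 3, Top2a, Ccnb2 and Ccne2, could not. Of the 79 probes, 45 (57.0%) were above background on all 8 arrays, against 47.9% of all probes, and 10 were above background on none. The plot of arrays above background by probe shows that every probe of the D-type cyclins, Cdk2 and Cdk4 was read on all 8 arrays. Ccnb1, Cdkn3, E2f1, Mcm5, Aurkb, Bub1 and Bub1b, like the 3 untested genes, had none that was. The brightest E2f1 probe was not dim: it was above background on 6 arrays and had no usable spot on high-fat replicates 3 and 4.

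**Figure D1:**
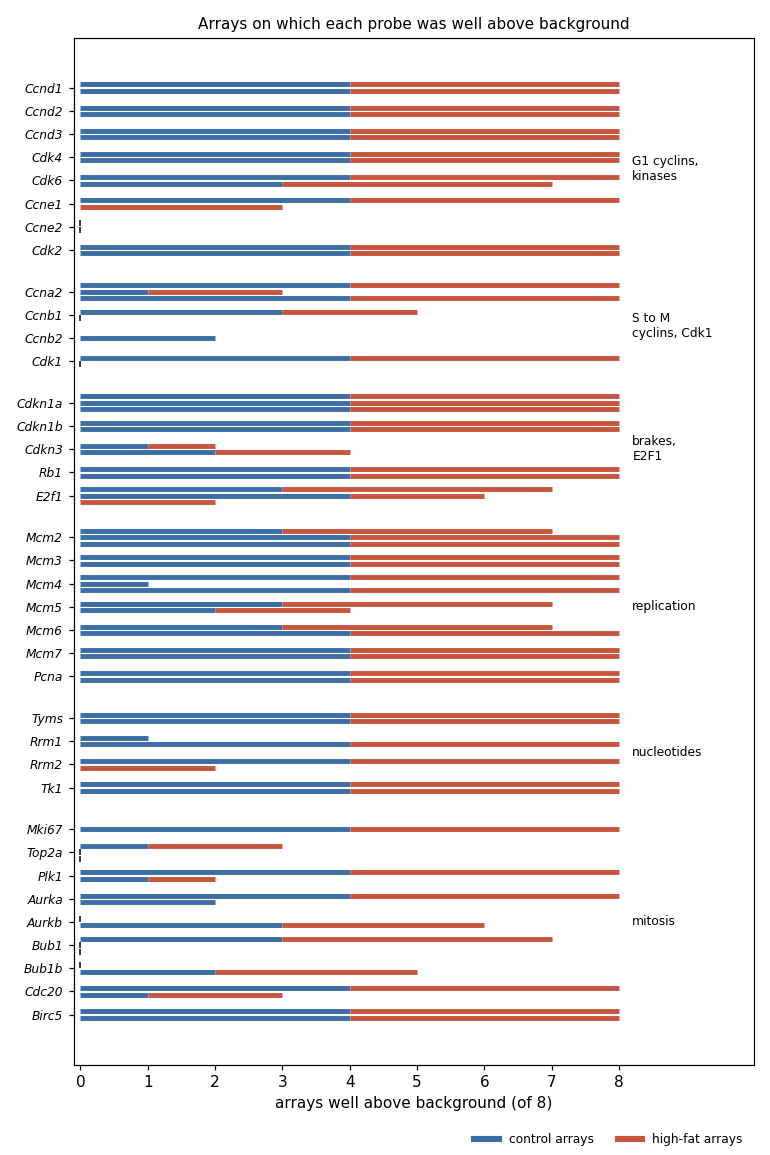
Number of arrays, of 8, on which each probe was well above background; each bar is 1 probe, blue for control arrays, red for high-fat arrays and a black tick for a probe above background on none. Genes are grouped by role, and 45 of the 79 bars reach 8.

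The 3 genes fixed as marks of dividing cells gave no common sign of a change. Mki67, the Ki-67 antigen found in cycling cells, was well above background on all 8 arrays. It read -4.72, -5.39, -5.20 and -5.24 on control arrays 1 to 4, and -4.72, -5.48, -5.32 and -6.15 on high-fat arrays 1 to 4. The groups overlapped, and the change of -0.28 had a 95% interval of -0.95 to 0.38 (limma, p adjusted by Benjamini-Hochberg across every probe tested, adjusted p = 0.71). The change was -0.14, -0.51 and -0.04 without control replicate 1, high-fat replicate 1 and high-fat replicate 4. Top2a, the topoisomerase that untangles replicated DNA, was above background by only 1 of its 3 probes, on 1 control and 2 high-fat arrays. That probe read -7.25, -7.49, -7.50 and -7.47 in control and -6.41, -7.06, -7.24 and -7.96 in high-fat arrays, with overlap and no test. Ccnd1, the cyclin that carries growth signals into the cycle, read -0.71, -1.77, -1.74 and -1.05 in control and -0.22, -1.09, -0.23 and -2.13 in high-fat arrays. High-fat replicate 4 was the lowest of the 8 and high-fat replicates 1 and 3 the highest, so the change of 0.40 carried an interval of -0.62 to 1.43 (limma, adjusted p = 0.73), and it ran from 0.17 (without high-fat replicate 1 or 3) to 0.81 (without high-fat replicate 4) when single arrays were left out.

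Across the 34 tested genes, 1 (2.94%) passed an adjusted p of 0.05 in limma, Rb1, which rose; of all 18587 genes tested, 163 (0.877%) passed, 65 of them higher (0.35%) and 98 lower (0.527%). The count over all genes fell to between 16 and 89 when any 1 array was left out. An unadjusted p under 0.05 was reached by 4 of the 34 (Rb1, Cdc20, Cdk6 and Bub1) and by 15.6% of all genes tested. In bulk tissue, less RNA per cell and fewer cells of a type cannot be told apart. Changes were positive for 21 genes and negative for 13, with a median of 0.12 against 0.00 over all genes tested. With background corrected by the normexp model instead, 18 were positive, 15 negative and 1 (Ccnd2) 0.00, and the median was 0.01; Bub1b (0.24 to -0.02), Ccnb1, Ccnd3 and Cdkn1a changed sign. The median size of change was 0.26 against 0.21 over all genes. For 24 genes the 95% interval lay inside a 2-fold change in either direction, and for 10 it reached or passed that size.

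**Figure D2:**
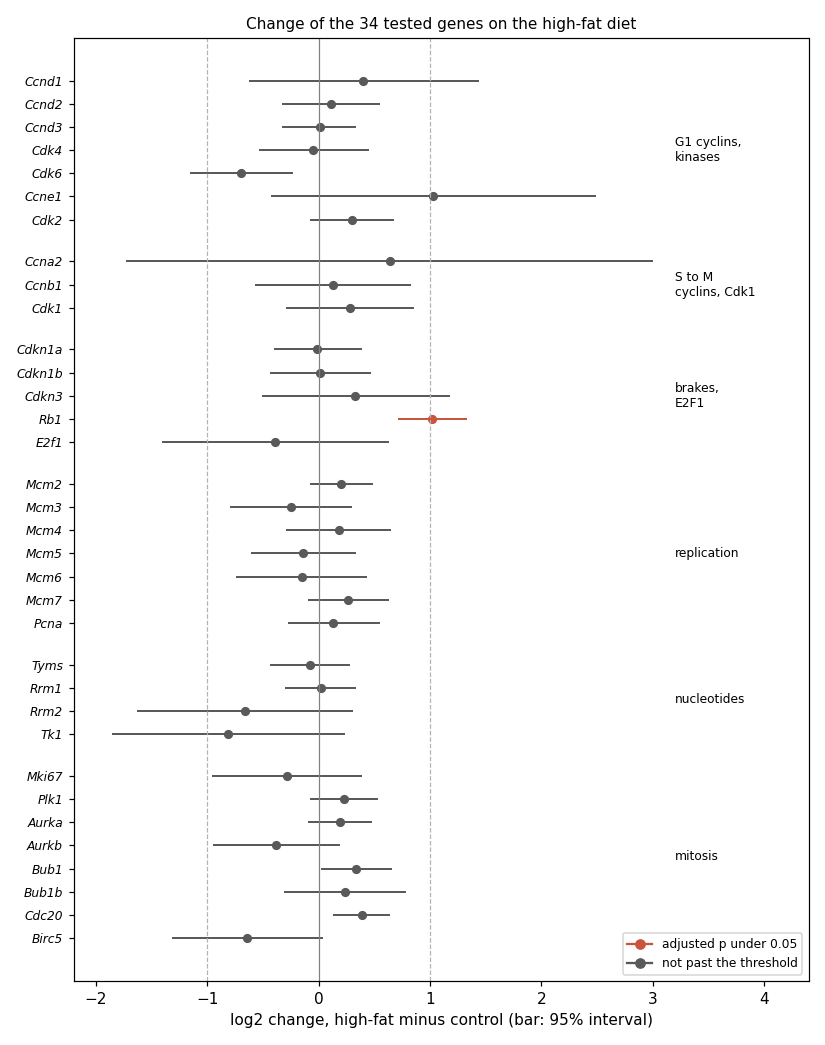
Change of each of the 34 tested genes, high-fat minus control, in log2 units, with its 95% interval as a bar; red marks an adjusted p under 0.05 and dashed lines a 2-fold change. Rb1, at 1.02, is the gene marked red, and the widest bars belong to Ccna2 and Ccne1.

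Groups did not overlap for 5 of the 34 genes (14.7%), against 11.1% of all genes tested. Rb1, Cdc20 and Bub1 were higher on all 4 high-fat arrays than on any control array, and Cdk6 and Birc5 were lower. The share of all genes with all high-fat arrays above was 4.88%, and with all below 6.24%.

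**Figure D3:**
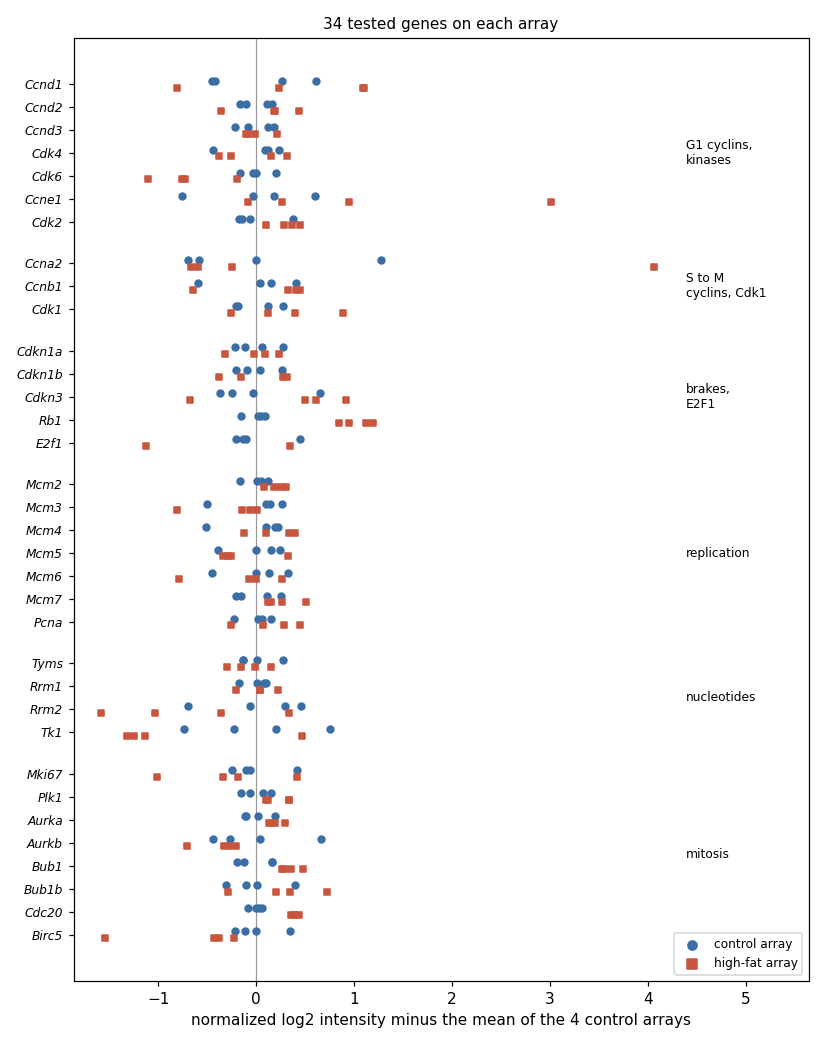
Normalized log2 intensity of each tested gene on each array, minus the mean of its 4 control arrays; circles are control and squares high-fat arrays. The squares of Rb1 and Cdc20 stand clear of the circles, while single squares far from the rest mark Ccna2 (high-fat replicate 1) and Ccne1 (high-fat replicate 4).

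Among the brakes on the cycle, Rb1, which encodes the retinoblastoma protein itself, rose about 2.03-fold. Its gene probe (rn4 chr15:53829645-53829704, minus strand) read -2.90, -3.11, -2.93 and -2.86 on control arrays and -2.11, -2.0, -1.76 and -1.83 on high-fat arrays. The means were -2.95 ± 0.11 and -1.92 ± 0.16 (SD, n = 4 each), and every high-fat array lay above every control array by more than the spread within either group. The change was 1.02, with a 95% interval of 0.72 to 1.32 (limma, adjusted p = 0.020), and it was 0.95 in slide row 1 and 1.10 in slide row 2 (adjusted p = 0.026 with the row as a block). The call was close to the threshold: without control replicate 2 or 3, or high-fat replicate 2, 3 or 4, the adjusted p was 0.056, 0.067, 0.066, 0.055 and 0.061 in turn, at changes of 0.97, 1.03, 1.05, 0.97 and 0.99. Without the 2 dimmest arrays it was 0.077 at a change of 1.10, and with no filter on dim probes, which tests more probes, 0.079.

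A second Rb1 probe gave the same direction. It read -2.82, -3.29, -2.98 and -2.82 in control and -2.08, -2.19, -2.26 and -2.09 in high-fat arrays, again without overlap. Its change was 0.82, with an interval of 0.50 to 1.15 (limma, adjusted p = 0.046), and it was 0.92 and 0.72 in the 2 slide rows. That call was lost in 14 of 21 alternatives, over which the change ranged from 0.69 to 0.88 and the adjusted p from 0.022 to 0.14. The probes are shown because they are not independent reports of the transcript. The last 18 bases of the first probe are the first 18 bases of the second, given in capitals in the 30 bases nearest the junction of each:
Rb1 first probe, last 30 bases: agaccgttaactATAGGAGCCTTCGGTTTT
Rb1 second probe, first 30 bases: ATAGGAGCCTTCGGTTTTccctcatacaag
Both probes thus read neighbouring stretches of the same transcript region. Gene models of rn4 were not used here, so whether that region is coding is not stated.

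Cdkn1a encodes p21, an inhibitor of cyclin-dependent kinases that p53 switches on. Its 3 probes gave different changes. The first probe (rn4 chr20:7385536-7385595, plus strand), which stands for the gene by its mean signal, read -0.21, 0.28, 0.06 and -0.11 in control and 0.09, -0.31, 0.24 and -0.02 in high-fat arrays. These values overlapped fully, and the change was -0.01 with an interval of -0.39 to 0.38 (limma, adjusted p = 0.99). The second probe (rn4 chr20:7386596-7386655, plus strand) read -3.41, -4.12, -2.78 and -1.91 in control and -2.19, -0.72, -1.21 and 0.13 in high-fat arrays. Its lowest high-fat array, replicate 1, lay below its highest control array, replicate 4.

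The change of the second Cdkn1a probe was 2.06, with an interval of 0.75 to 3.37, and did not pass (limma, adjusted p = 0.15; 0.087 to 0.32 over its alternatives). The third of the probes read -4.72, -5.61, -4.03 and -3.46 in control and -3.83, -2.05, -2.96 and -1.32 in high-fat arrays. Its change was 1.91, with an interval of 0.53 to 3.30 (limma, adjusted p = 0.19). The second and the third probe put all 8 arrays in the same order, and the first shared its rank with the second on 1 array of 8. The second minus the first probe was -3.20, -4.40, -2.84 and -1.80 in control and -2.28, -0.41, -1.46 and 0.15 in high-fat arrays. That difference between probes was 2.06 larger in the high-fat group (exact two-sided permutation test over 70 splits, p = 0.0571, where the smallest possible is 0.0286; 0.628 after Benjamini-Hochberg adjustment over the 22 probe pairs compared), and the third minus the first was 1.92 larger with the same p by that exact test. With 4 arrays a group, no single pair could pass after adjustment over 22, so these p-values do not show that probes read alike.

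The first bases of the 3 Cdkn1a probes are shown because the reading depended on the probe; no pair of them shares a run of more than 6 bases over their full 60:
Cdkn1a first probe, first 30 bases: aatttaaacttctcctgtatatactctgcc
Cdkn1a second probe, first 30 bases: ccctgtttctgtaacaccctgagctggact
Cdkn1a, the third probe, first 30 bases: aagtcctcagtgacttgtcccatttcttag
By these coordinates, the second probe lies downstream of the first on the plus strand. The array file gives no position for the third.

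**Figure D4:**
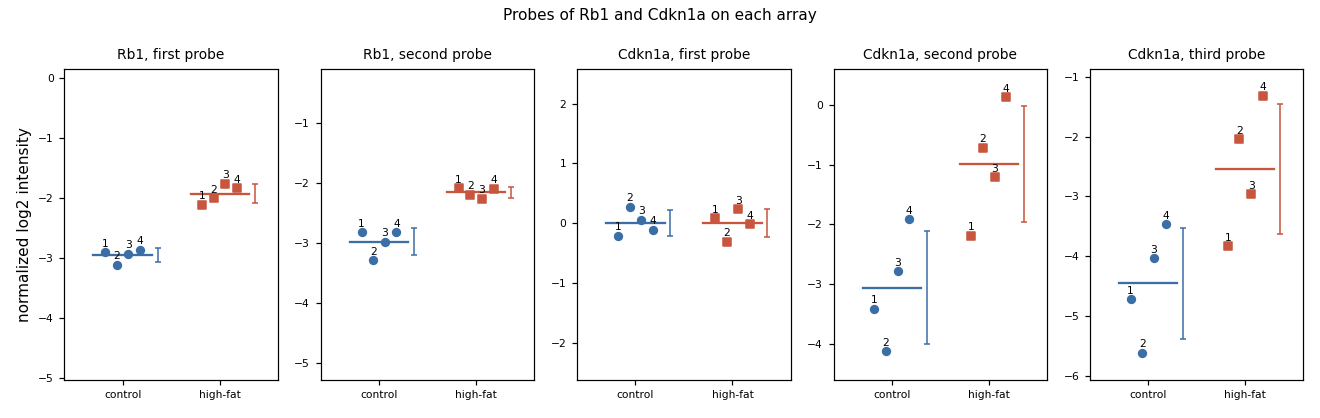
Normalized log2 intensity of the 2 Rb1 probes and the 3 Cdkn1a probes on each array, numbered by replicate; horizontal lines are group means, bars at the side are 1 SD, and all panels span the same number of log2 units. Both Rb1 probes separate the groups, the first Cdkn1a probe does not, and the other two order the arrays alike.

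The other brakes did not pass. Cdkn1b, which encodes the inhibitor p27, had a change of 0.01 (interval -0.43 to 0.46) by its gene probe and 0.06 by another that shares 41 of its bases. Cdkn3, a phosphatase that acts on Cdk2 and Cdk1, was above background on 4 arrays only and had a change of 0.33 (interval -0.50 to 1.17). E2f1, the transcription factor that the retinoblastoma protein restrains, had a change of -0.39 by a probe with no usable spot on high-fat replicates 3 and 4, which the fit therefore left out. Another E2f1 probe gave 0.52 with an interval of -0.05 to 1.08 (limma, adjusted p = 0.37), so the sign depended on the probe.

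The G1 cyclins and their kinases had a median change of 0.11 over 7 tested genes of 8, and none passed in limma. Cdk6, a partner of the D-type cyclins, read -4.83, -5.04, -5.20 and -5.07 in control and -5.23, -6.14, -5.76 and -5.79 in high-fat arrays. All high-fat arrays were lower, and the change was -0.70 with an interval of -1.15 to -0.24 (limma, adjusted p = 0.15). Its other probe gave 0.34 with an interval of -1.14 to 1.82, and over the alternatives the gene's change ranged from -0.86 to -0.18. Cdk4, the other kinase of the D-type cyclins, had a change of -0.05 (interval -0.53 to 0.44), and 0.10 by its other probe. The remaining D-type cyclins Ccnd2 and Ccnd3 had changes of 0.11 and 0.01, with intervals inside a 2-fold change. Their other probes gave 0.02 and -0.06.

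Cdk2, the kinase of the E-type cyclins, read -2.23, -2.75, -2.67 and -2.78 in control and -2.51, -2.32, -2.24 and -2.16 in high-fat arrays. Control replicate 1 lay among the high-fat arrays, and the change was 0.30 (limma, adjusted p = 0.43). Its other probe gave 0.35, with control values of -5.17, -5.31, -5.09 and -5.20 and high-fat values of -4.81, -4.91, -4.95 and -4.70. There the groups did not overlap, and the adjusted p by limma was 0.22. Ccne1, the cyclin E partner of Cdk2, read -4.93, -4.29, -5.65 and -4.71 in control and -4.98, -4.63, -3.95 and -1.89 in high-fat arrays. The change of 1.03 (limma, adjusted p = 0.50) rested on high-fat replicate 4; it was 0.37 without that array, and it was -0.20 in slide row 1 against 2.26 in slide row 2.

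A second Ccne1 probe was above background on 3 high-fat arrays and on no control array. It read -7.86, -8.85, -9.24 and -8.39 in control and -6.05, -9.54, -7.30 and -6.18 in high-fat arrays. For comparison, each control array was entered at its own reading or at its lowest signal that counted as above background, whichever was higher. The high-fat mean was 1.54-fold above the mean of those, with no test. It is not a firm bound, since the high-fat mean includes an array below background. High-fat replicate 2 was below background there, and its signal lay under every control array, so the groups overlapped. Ccne2, which encodes the related cyclin E2, was not well above background by either probe on any array.

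The S-to-M cyclins and their kinase had changes of 0.13 to 0.64 over 3 tested genes of 4, and none passed in limma. Ccna2, the cyclin of S phase and G2, read -5.09, -7.06, -6.37 and -6.95 in control and -2.31, -6.96, -6.62 and -7.03 in high-fat arrays. Replicate 1 was the highest in both groups. The change of 0.64 had an interval of -1.72 to 2.99 and became -0.51 without high-fat replicate 1; the other tested probe gave -0.29. Cdk1, the kinase that drives entry into mitosis, read -4.92, -5.40, -5.08 and -5.38 in control and -4.31, -5.08, -4.80 and -5.45 in high-fat arrays. High-fat replicate 2 lay within the control range and replicate 4 just under it, and the change was 0.28 (limma, adjusted p = 0.65). It was 0.08 under normexp, 0.08 without high-fat replicate 1 and 0.46 without high-fat replicate 4.

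The B-type cyclins, which pair with Cdk1, were near the limit of detection. Ccnb1 was above background on 3 control and 2 high-fat arrays, with a change of 0.13 (interval -0.56 to 0.82). Ccnb2 was above background on control replicates alone, 2 of 4, and on no high-fat array. It read -7.58, -6.35, -8.56 and -7.71 in control and -7.03, -7.66, -7.86 and -9.10 in high-fat arrays, which overlapped. Compared as for the second Ccne1 probe, with the groups exchanged, it was 1.16-fold lower in the high-fat group, with no test. That is not a firm bound, since the control mean includes arrays below background.

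The replication genes had small changes. They are the 6 subunits of the MCM helicase, which opens DNA at origins, and Pcna, the clamp that holds the polymerase on DNA. All 7 were tested, none passed in limma, and their changes ran from -0.25 to 0.26 with a median of 0.13. Mcm2 read -2.39, -2.11, -2.18 and -2.22 in control and -1.97, -2.04, -1.92 and -2.15 in high-fat arrays. High-fat replicate 4 lay within the control range, and the change was 0.20 (limma, adjusted p = 0.48). Mcm7 read -0.48, -0.22, -0.53 and -0.07 in control and -0.06, 0.18, -0.17 and -0.21 in high-fat arrays.

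For Mcm7 the groups overlapped, the change was 0.26 (limma, adjusted p = 0.48), and its other probe gave 0.27. Mcm4 had a change of 0.18 and Pcna of 0.13, while Mcm3, Mcm5 and Mcm6 had changes of -0.25, -0.14 and -0.15. The 7 intervals together ran from -0.79 (Mcm3) to 0.64 (Mcm4), all inside a 2-fold change. Between the slide rows the sign differed for Mcm3 (0.15 and -0.66), Mcm4 (0.53 and -0.17) and Mcm6 (0.16 and -0.45). By the gene probes, changes of both signs were thus measured within 1 complex, none of them past the threshold. Other tested probes gave 0.01 for Mcm3, -0.01 for Mcm5 and 0.28 for Mcm6, so the sign depended on the probe for Mcm3 and Mcm6. Those of Mcm2 gave 0.04 and 0.42, and that of Mcm4 gave 0.22.

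The 4 nucleotide supply genes had a median change of -0.37, and none passed in limma. Tk1, thymidine kinase, which salvages thymidine for DNA synthesis, read -2.35, -2.90, -3.33 and -3.84 in control and -4.43, -4.35, -4.24 and -2.64 in high-fat arrays. High-fat replicates 1 to 3 lay below every control array and replicate 4 lay near the top of the control range. The change was -0.81 (limma, adjusted p = 0.45), -1.23 without high-fat replicate 4, and -1.76 and 0.15 in slide rows 1 and 2. Its other probe gave -0.21.

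Rrm2, the small subunit of ribonucleotide reductase, which makes deoxyribonucleotides, read -3.49, -4.12, -3.13 and -2.97 in control and -3.09, -3.79, -4.46 and -5.01 in high-fat arrays. The groups overlapped, and the change of -0.66 (limma, adjusted p = 0.52) was 0.37 in slide row 1, -1.69 in slide row 2 and -0.35 without high-fat replicate 4. Rrm1, the large subunit, had a change of 0.02 with an interval of -0.29 to 0.33. Tyms, thymidylate synthase, had a change of -0.08 with an interval of -0.43 to 0.27, and its other probe gave 0.18. The 2 subunits of the reductase were measured with different precision: the interval of Rrm2, -1.62 to 0.30, included a change of -1 and that of Rrm1 did not.

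Of the 9 mitotic genes and proliferation markers, 8 were tested and none passed in limma. Cdc20, which activates the ubiquitin ligase that ends mitosis, read -2.87, -2.91, -2.99 and -2.84 in control and -2.52, -2.55, -2.47 and -2.51 in high-fat arrays. The groups stood apart with little spread within either, SD 0.06 in control and 0.03 in high-fat arrays. The change was 0.39 with an interval of 0.14 to 0.63 (limma, adjusted p = 0.14; 0.093 to 0.36 over its alternatives). It was 0.36 and 0.42 in the slide rows and stayed between 0.33 and 0.41 under every alternative run. Its other probe was above background on 3 arrays and was not tested.

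Birc5, which encodes survivin, an inhibitor of apoptosis that also works in chromosome segregation, read -2.59, -3.15, -2.94 and -3.05 in control and -3.31, -3.36, -4.48 and -3.16 in high-fat arrays. High-fat replicate 3 was far below the rest, and high-fat replicate 4 lay just under the lowest control array. The change was -0.64 (limma, adjusted p = 0.34) and -0.34 without high-fat replicate 3. Its other probe, which shares 24 bases, gave -0.77. Bub1, a kinase of the spindle checkpoint, read -5.54, -5.18, -5.47 and -5.18 in control and -4.87, -5.08, -5.06 and -4.99 in high-fat arrays.

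Bub1 was higher on every high-fat array, with a change of 0.34 (limma, adjusted p = 0.29), which was 0.06 under normexp correction. Plk1, the polo-like kinase of mitotic entry, read -5.08, -5.30, -5.21 and -5.00 in control and -4.81, -5.03, -5.05 and -4.81 in high-fat arrays. Control replicate 4 lay above 2 high-fat arrays, and the change was 0.23 (limma, adjusted p = 0.46), or 0.06 under normexp. Aurka, the aurora kinase of the spindle poles, read -4.15, -4.16, -4.03 and -3.86 in control and -3.76, -3.89, -3.86 and -3.92 in high-fat arrays. Control replicate 4 lay level with or above 3 high-fat arrays, so the groups overlapped. The change was 0.19 (limma, adjusted p = 0.52), and 0.10 under normexp.

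Aurkb, the aurora kinase of the centromere, was above background on 6 arrays and read -5.70, -5.08, -6.01 and -6.18 in control and -6.07, -6.02, -5.95 and -6.45 in high-fat arrays. The groups overlapped and the change was -0.38 (limma, adjusted p = 0.53), or -0.16 without control replicate 2. Bub1b, another spindle checkpoint kinase, was above background on 5 arrays with a change of 0.24 (interval -0.30 to 0.78). A few dim second probes were above background in 1 group only. Those of E2f1 and Rrm2 were so on 2 high-fat arrays each, and those of Rrm1 and Aurka on 1 and 2 control arrays. Compared as for the second Ccne1 probe, those of E2f1 and Rrm2 were 1.19-fold and 1.22-fold higher in the high-fat group. Those of Rrm1 and Aurka were 1.18-fold and 1.26-fold lower there. None was tested, and none is a firm bound, since arrays below background enter both means. The groups overlapped for the probes of E2f1, where control replicate 1 read -6.26, above all high-fat arrays, of Rrm2 and of Rrm1, but not for that of Aurka. A dim Mcm4 probe was above background on 1 control array only and gave no such value.

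In all, 21 genes had more than 1 tested probe. The signs of the changes were the same for 12 of them and opposite for 9. The gap between probes was 2.06 for Cdkn1a, 1.04 for Cdk6, 0.92 for Ccna2 and 0.91 for E2f1, and from 0.01 to 0.60 for the other genes. At the low end, the 2 probes of Mcm7, of Mcm4 and of Cdk2 differed by 0.01, 0.04 and 0.05.

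Outside the 37 genes, 94 other genes of the same pathways were tested. By their gene probes 0 of them passed in limma, and 15 (16%) had an unadjusted p under 0.05, near the 15.6% of all genes tested. Their median change was 0.13. By list, the median was 0.12 for 33 genes of replication origins and forks, 0.11 for 22 mitotic genes, 0.20 for 22 G1 regulators and kinase inhibitors, and -0.07 for 17 targets of p53. Groups did not overlap for 5 of the 94 (5.32%), against 11.1% of all genes tested. All 5 were higher, where the share of all genes was 4.88%, and 0 were lower, where it was 6.24%. Plk2, a polo-like kinase that p53 induces, read -2.01, -2.52, -1.62 and -1.74 in control and -0.86, -0.28, -0.36 and -1.49 in high-fat arrays, a change of 1.22 (limma, adjusted p = 0.11).

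The next smallest p-values belonged to Cdc25b, a phosphatase that activates Cdk1 (0.56, adjusted p = 0.14 in limma), and Gins1, a subunit of the replicative helicase complex (0.50, adjusted p = 0.16 in limma). Other Cdc25b probes gave 0.66 (limma, adjusted p = 0.27) and 1.35 (limma, adjusted p = 0.078). The probe at 1.35 was above background on 6 arrays and gave 0.44 under normexp. Another Gins1 probe gave 0.60 (limma, adjusted p = 0.091). Mcm10, which acts at origins, had a change of 2.0 with an interval of 0.61 to 3.38 (limma, adjusted p = 0.18). Rbl2, which encodes p130, a relative of the retinoblastoma protein, had a change of 0.51 (limma, adjusted p = 0.22), and 0.80 by its other probe (limma, adjusted p = 0.12). Tfdp2, an E2F partner, had 0.67 by its gene probe (limma, adjusted p = 0.30), while a second probe, named after its value was seen, gave 1.3 (limma, adjusted p = 0.034).

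Promoters from RefSeq (GRCr8, 250 bases before to 50 after the start site) were matched for 28 of the 37 genes. The E2F words TTTCCCGC, TTTCGCGC, TTTGCCGC and TTTGGCGC, on either strand, were present in 8 of the 28 (28.6%), against 2.14% of 33469 promoters of the same length. The word TTTGAA, the core of the cell cycle genes homology region found in mitotic gene promoters, was present on either strand in 10 (35.7%), against 18.3%. The shares of the 28 count a gene with the word in any of its promoters. Those of all promoters count each promoter singly, so the shares are not fully alike. Windows of 30 bases are shown in the direction of each gene, with the word in capitals, for the brake that rose, for a group of helicase subunits and for 2 mitotic genes:
Rb1 (chr15:54911837-54911866, minus strand): ggaagtgacgtTTTCCCGCggttggcccgg
Mcm2 (chr4:122918090-122918119, minus strand): cgtgacccggtTTTCGCGCgaaaacccgtg
Mcm5 (chr19:13488589-13488618, plus strand): tagctcagaagTTTCGCGCcaaaacgtccc
Mcm6 (chr13:42404473-42404502, minus strand): tggcgtctgctTTTGGCGCgaaattagcgt
Cdc20 (chr5:137255833-137255862, minus strand): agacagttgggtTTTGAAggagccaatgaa
Plk1 (chr1:186147652-186147681, plus strand): cccagcgctgcgTTTGAAttcggggaggag

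By their gene probes, the genes with an E2F word had changes of both signs. These were 1.02 for Rb1, 0.28 for Cdk1, 0.26 for Mcm7, 0.20 for Mcm2, -0.08 for Tyms, -0.14 for Mcm5, -0.15 for Mcm6 and -0.25 for Mcm3. Other tested probes gave 0.82 for Rb1, 0.27 for Mcm7, and 0.04 and 0.42 for Mcm2. They gave 0.18 for Tyms, -0.01 for Mcm5, 0.28 for Mcm6 and 0.01 for Mcm3. The sign thus depended on the probe for Tyms, Mcm6 and Mcm3. Among the 10 with TTTGAA, Top2a and Ccnb2 were not tested, and the others ran from -0.64 (Birc5) to 0.39 (Cdc20). A word is a match of letters in this window and not a measured binding site.

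Markers of other liver cell types moved with diet in part. The mean level of 8 lymphocyte markers ran from -4.41 to -3.76 in control and from -5.20 to -4.54 in high-fat arrays. The -5.20 was on high-fat replicate 4, where Nkg7 had no usable spot and was left out of the mean. Nkg7 read -2.93, -3.11 and -2.86 on the other high-fat arrays, so its absence lowered that mean. The -3.76 was on control replicate 4, where Cd79a read -3.77, against -7.57, -7.09 and -7.58 on the other control arrays. Of the 8, 6 had negative and 2 positive changes, from -1.44 (Cd3g) to 0.31 (Cd79b), with a median of -0.47. Cd3g passed as lower in limma. The mean level of 5 erythroid markers ran from -0.78 to 0.31 in control and from 0.50 to 0.73 in high-fat arrays, with none passing. Their changes were positive for 4 and negative for 1 (Slc4a1, -0.29), with a median of 1.05. Of 6 stellate cell markers, 3 had positive and 3 negative changes (median 0.16): Reln passed as higher (1.34), while Des, lower on every high-fat array at -0.70, did not pass. Lrat was above background on the 4 high-fat arrays and no control array, so it was tested only through the group where it is high. With Lrat, the mean of the 6 ran from -3.28 to -2.74 in control and from -1.91 to -1.41 in high-fat arrays; without it, a choice made after its values were seen, the ranges overlapped, -1.93 to -1.65 and -1.84 to -1.3. The ranges overlapped for 7 macrophage markers (0.43 to 1.15 and -0.43 to 0.68), 4 cholangiocyte markers (-3.84 to -2.58 and -4.24 to -3.65) and 5 endothelial markers (-1.33 to -0.89 and -0.97 to -0.73). Marker by marker, all 7 macrophage changes were negative, from -2.38 (Marco) to -0.04, with a median of -0.26. All 4 cholangiocyte changes were negative too, from -1.64 (Spp1) to -0.51, with a median of -0.61. Of the 5 endothelial changes, 3 were positive and 2 negative (median 0.15). None of these markers passed in limma. The part of these cell types in the values of Rb1 and the other genes was not tested.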

How the data were processed

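The authors deposited spot intensity values and background flags from a custom rat array annotated on rn4, produced by Agilent Feature Extraction, version 10.7.3.1 per the file headers. A value table deposited by the authors is in log2 units. Its values matched the scanner values scaled to the 75th percentile of all probes (correlation at least 0.999 on each array); its own scaling is not given in the sources used here, and it served as an alternative. Control spots and outlier spots were left out, spots of a probe averaged, and log2 processed signals set relative to each array's 75th percentile over the 22462 probes read above background everywhere, since these were 47.91% of 46883. Probes above background on at least 4 arrays, whatever their group, were tested (31535 probes, 18587 genes) with limma 3.58.1 in R 4.3.3, diet as the only term, and Benjamini-Hochberg adjustment over all of them at 0.05. A gene stands for its tested probe with the highest mean over the 8 arrays. Other tested probes are given for the members whose probes had opposite signs, and for some other genes. Given in full were genes past the threshold, Mki67, Top2a, Ccnd1, the 15 members with the smallest p and any measured in 1 group only; of the other pathway genes, those past the threshold and the 5 with the smallest p. The fit was tested on simulated data. The genes, lists and alternatives were chosen with earlier results of these data known. Replicate numbers were not used to pair the arrays in the main fit, and whether they pair the samples was not settled. Another background correction, scalings, filters, blocks, thresholds and leaving out arrays were tried.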

Additional observations from a re-analysis of the deposited data

Results flagged for a closer look

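Among 113 sets of 4 arrays (a probe of these genes in 1 group), 9 (7.96%) held an array whose gap to the nearest of the others, as a share of the whole range, passed Dixon's 95% critical value; chance gives about 1 in 20. High-fat replicate 4 stood apart for 3 probes. It was high for Tk1 (-2.64, the others -4.43 to -4.24), and low for Ccnb1 (-7.51, the others -6.54 to -6.42) and the second probe of Ccnd2 (-5.56, the others -5.00 to -4.91). High-fat replicate 3 was high for Mcm5 (-5.28, the others -5.94 to -5.86) and low for Birc5 (-4.48, the others -3.36 to -3.16). High-fat replicate 1 was high for Ccna2 (-2.31, the others -7.03 to -6.62).

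Of the control arrays, replicate 1 was high for E2f1 (-2.99, the others -3.64 to -3.54) and low for the second probe of Cdk4 (-3.46, the others -2.7 to -2.6). Control replicate 2 was low for Mcm4 (-2.27, the others -1.66 to -1.54). No array stood apart for either Rb1 probe.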

How the results depend on the processing

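Over 22 alternatives the Rb1 change kept its sign, from 0.90 to 1.10, with adjusted p from 0.0078 to 0.11 in limma, and its call was lost in 9. The count of the 37 genes passing was 1 (Rb1) as reported and 0 with no filter on dim probes, with the replicate block and at a threshold of 0.01; leaving out single arrays gave 0 to 1. None of the other pathway genes passed by its gene probe under any alternative run. Over all genes, 163 passed as reported, against 253 under normexp, 5 with no filter, 331 with probes above background on all 8 arrays, 335 with a trended robust variance, 98 with the slide row as a block, 504 at a threshold of 0.10 and 5 at 0.01, and 16 to 89 with single arrays left out. Without the 2 dimmest arrays, an alternative chosen after seeing the data, 14 passed over all genes and 0 of the 37. The deviations of same-numbered arrays from their group means had correlations of -0.122, 0.264, 0.231 and 0.012. Differently numbered arrays were not compared, so these values do not settle whether the numbers pair the samples. With the replicate block 1 gene passed over all genes, and Rb1 had an adjusted p of 0.11 in limma.

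The first Cdkn1a probe kept its sign in 15 of 21 alternatives (-0.11 to 0.10) and Ccna2 in 19 of 21 (-0.51 to 1.07). Apart from Rb1, the members whose interval reached a 2-fold change, such as Ccna2, Ccne1 and Tk1, could hold changes that 4 arrays a group would not resolve, and Ccnb1, Cdkn3 and Bub1b were read near background.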
